A study of Mus musculus with 4 samples.

Results

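Interferon-stimulated genes are the genes that a cell switches on when interferon binds its receptors. Described here are 9 of them: the transcription factor gene Irf7, the antiviral genes Rtp4, Ifi44, Oasl2, Ifit1 and Ifit3, the ubiquitin-like modifier gene Isg15, and Bst2 and Ifi27l2a. They were chosen by symbol, and all 9 were present, as 1 row each, among the 32285 genes listed in the files. Their transcripts were counted by single-cell RNA sequencing in mammary organoids, small cultured pieces of gland, prepared from the fat pads of virgin mice aged 8 to 9 weeks after removal of the lymph nodes. The 4 cultures were embedded in collagen (COL1), in a stiff matrix (STIFF), in Matrigel (MATR), a gel of basement membrane proteins, and in a soft matrix (SOFT). The labels name no interferon, gene deletion or drug that differs between them.

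Type I interferons bind a receptor made of Ifnar1 and Ifnar2, and type III interferons, called interferon lambda, bind Ifnlr1 with Il10rb. Both receptors act through the kinases Jak1 and Tyk2, which phosphorylate STAT proteins. These join Irf9, and the complex binds a short DNA element in the promoters of the stimulated genes. Interferon lambda is known for acting mainly on epithelial tissue, while most cell types carry the type I receptor.

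The core of that element was searched as GAAA, any 2 bases and GAAA again, on both strands. The bases searched were the 250 upstream of each gene start used in RefSeq's promoter sequences of build GRCm38.p6. For Ifit3, Irf7 and Oasl2 that start lies inside the gene's listed span. The whole Ifit3 window lies inside it, since the span begins at chr19:34583119. A match was found in 978 of 32851 such windows, which is 2.98%. Of the 9 genes, 7 had a window in that set, and 4 of these held at least 1 match, namely Ifit1, Ifit3, Isg15 and Bst2. Their windows are shown because these genes share the element, with the matched bases in capitals and each sequence running 5′ to 3′ along the gene's own strand. In Ifit1 and Ifit3 the element lay on the opposite strand, so that it reads as its reverse complement, TTTC repeated in the same way. Of their 2 matches each, those of Ifit1 end 95 and 76 bases before its start. Those of Ifit3 end 147 and 113 bases before the start used in that set, and so lie within the listed gene span. In Isg15, 3 matches overlap in 1 run that begins 78 bases before the start, and in Bst2 2 matches overlap and begin 130 bases before it. A match is a description of the letters and says nothing about binding in these cells. The windows of Irf7, Ifi44 and Oasl2 held no match to these letters.
Ifit1 chr19:34640639-34640888, plus strand: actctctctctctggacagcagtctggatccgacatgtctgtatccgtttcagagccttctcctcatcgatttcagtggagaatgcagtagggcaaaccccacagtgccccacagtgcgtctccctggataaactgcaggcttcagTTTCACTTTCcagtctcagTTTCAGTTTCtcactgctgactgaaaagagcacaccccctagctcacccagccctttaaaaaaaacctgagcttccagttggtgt
Ifit3 chr19:34583279-34583528, plus strand: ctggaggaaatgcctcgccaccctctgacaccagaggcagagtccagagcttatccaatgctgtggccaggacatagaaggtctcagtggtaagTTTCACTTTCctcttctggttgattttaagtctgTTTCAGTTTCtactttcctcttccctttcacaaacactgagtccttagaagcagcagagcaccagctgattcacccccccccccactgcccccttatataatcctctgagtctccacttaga
Isg15 chr4:156200819-156201068, minus strand: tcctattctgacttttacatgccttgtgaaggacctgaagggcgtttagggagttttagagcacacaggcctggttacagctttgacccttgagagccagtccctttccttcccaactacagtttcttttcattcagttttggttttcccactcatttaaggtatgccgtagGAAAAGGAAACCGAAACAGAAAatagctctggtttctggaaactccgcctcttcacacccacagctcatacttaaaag
Bst2 chr8:71537473-71537722, minus strand: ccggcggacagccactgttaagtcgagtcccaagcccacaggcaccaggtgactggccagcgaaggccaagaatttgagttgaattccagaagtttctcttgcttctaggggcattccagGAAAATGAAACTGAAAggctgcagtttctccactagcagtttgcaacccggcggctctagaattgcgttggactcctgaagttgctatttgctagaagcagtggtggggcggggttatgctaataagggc

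COL1 and STIFF cells were loaded together on 1 channel, and MATR and SOFT cells on another, after each culture had been marked with a hashtag antibody that carries a readable tag. Each condition was 1 culture. No difference between cultures was therefore tested, and every interval below is an exact 95% interval that covers counting error only and not the spread between cultures. The channels gave 133608252 and 131036333 gene UMIs (molecules counted once each) in 10615 and 8767 barcodes, and 22 barcodes occurred in both. Among barcodes that passed the filters, 1563 cells carried the COL1 tag alone, 2451 the STIFF tag, 2333 the MATR tag and 1941 the SOFT tag. No tag was called for 54.9% of COL1 and STIFF barcodes and 42.7% of MATR and SOFT barcodes. The names of the deposited matrices were used to pair tags with cultures, since the labels do not state the pairing. If the tags were exchanged, COL1 against STIFF and MATR against SOFT would turn round. STIFF against SOFT and COL1 against MATR cross channels, so that channel and matrix cannot be told apart.

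Cells were clustered without the interferon genes and classed by markers. Basal-like cells were led by Acta2 and Krt5. Luminal-like cells of the hormone receptor type (HR-positive) were led by genes such as Calca, Calcb and Wnt4, and luminal-like cells without it (HR-negative) by Csn3, Ltf and Trf. Fibroblast-like cells expressed Col1a1 and Col3a1, and immune-like cells the macrophage genes Lyz2 and C1qa. Levels are UMIs summed over the cells of a class and culture, per 1000000 gene UMIs of those cells (CPM). T and NK cell markers summed to between 0.840 and 4.22 CPM in immune-like cells. The HR-negative class held 253 COL1, 244 STIFF, 332 MATR and 332 SOFT cells, and the HR-positive class 531, 1079, 1245 and 1024 cells of the same cultures. There were 229 COL1, 186 STIFF, 180 MATR and 77 SOFT basal-like cells, 166 COL1, 149 STIFF, 107 MATR and 82 SOFT fibroblast-like cells, and 146 COL1, 246 STIFF, 156 MATR and 258 SOFT immune-like cells. The share of barcodes with no tag was 76.1% and 69.3% in HR-negative cells of the COL1 and STIFF and of the MATR and SOFT channel, and 5.23% and 1.51% in immune-like cells. Tagged HR-negative cells were deeper than their class as a whole. Their median was 13168 UMIs for COL1, 27745 for STIFF, 23336 for MATR and 23745.5 for SOFT. Over all kept HR-negative barcodes it was 10116.5 in the COL1 and STIFF channel and 12667.5 in the other.

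In all 4 cultures HR-negative luminal-like cells had the highest Irf7, Rtp4, Ifi44 and Oasl2 of the 5 classes. Irf7, which drives further interferon production, stood at 190 CPM [177 to 203] for COL1, 181 [172 to 191] for STIFF, 220 [210 to 230] for MATR and 221 [211 to 231] for SOFT HR-negative cells. In HR-positive cells it was 21.4 CPM for COL1, 21.0 for STIFF, 24.4 for MATR and 42.7 for SOFT. The HR-negative level was thus between 5.17 times as high (SOFT) and 9.0 times as high (MATR), and the intervals of these classes did not overlap in any culture. Irf7 was intermediate in fibroblast-like cells, at 37.0 CPM for COL1, 82.4 for STIFF, 63.4 for MATR and 101 for SOFT. Immune-like cells had 40.5 CPM for COL1, 53.0 for STIFF, 39.1 for MATR and 51.5 for SOFT, and basal-like cells 44.4 CPM for COL1, 27.3 for STIFF, 34.1 for MATR and 47.0 for SOFT. In COL1 these last 3 classes could not be ordered within counting error, nor could basal-like and HR-positive cells in STIFF and SOFT.

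Rtp4 encodes a receptor-transporting protein and was likewise higher in HR-negative than in HR-positive cells. Its level was 130 CPM for COL1, 113 for STIFF, 136 for MATR and 154 for SOFT in HR-negative cells, against 51.6 CPM for COL1, 53.2 for STIFF, 50.4 for MATR and 91.8 for SOFT in HR-positive cells. In the other classes Rtp4 lay between 31.3 and 74.4 CPM, and below HR-negative cells neighbouring classes could not be ordered within counting error in COL1, STIFF or MATR. Ifi44 was at 72.7 CPM for COL1, 67.2 for STIFF, 77.7 for MATR and 92.4 for SOFT in HR-negative cells and did not exceed 31.2 CPM in any other class. Oasl2 belongs to the oligoadenylate synthetase family, which responds to double-stranded RNA, and stood at 51.9 CPM for COL1, 44.8 for STIFF, 55.8 for MATR and 65.0 for SOFT in HR-negative cells. In MATR its level in fibroblast-like cells, 44.7 CPM, could not be separated from the HR-negative one.

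Ifit1 binds foreign RNA ends and blocks their translation, and in humans IFIT3 is its stabilising partner. Ifit1 in HR-negative cells was at 60.2 CPM for COL1, 49.3 for STIFF, 84.4 for MATR and 83.9 for SOFT, the highest of the classes in 3 of the 4 cultures. In MATR the highest was the fibroblast-like class, at 106 CPM. Ifit3 showed the same exception, with 44.7 CPM in MATR fibroblast-like cells against 18.9 CPM in MATR HR-negative cells, and in COL1 and STIFF these classes could not be separated. Ifit3 was sparse elsewhere: basal-like cells held 1 Ifit3 UMI for COL1, 4 for STIFF, 3 for MATR and 1 for SOFT. Ifit3 and the neighbouring gene Ifit3b are near-identical, and how reads shared by them were counted is not given in the sources used here, so Ifit3 counts are uncertain.

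Isg15, whose product is coupled to other proteins like ubiquitin, was highest in fibroblast-like cells in 3 cultures, at 173 CPM for STIFF, 244 for MATR and 291 for SOFT. In COL1 fibroblast-like cells it was 82.0 CPM, below the 136 CPM of COL1 HR-negative cells. The basal-like and immune-like classes had between 33.4 and 67.8 CPM of Isg15.

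Bst2 and Ifi27l2a were highest in other classes. Bst2 encodes tetherin, which holds budding viruses on the cell surface, and stood highest in HR-positive cells, at 555 CPM for COL1, 508 for STIFF, 578 for MATR and 717 for SOFT. In MATR this could not be separated from the 565 CPM of immune-like cells. Basal-like cells had the lowest Bst2 of the classes in every culture, from 119 to 178 CPM. Ifi27l2a encodes a small interferon-induced membrane protein and was highest in immune-like cells, at 316 CPM for COL1, 337 for STIFF, 499 for MATR and 759 for SOFT. It was lowest in HR-positive cells, at 6.01 CPM for COL1, 2.68 for STIFF, 3.38 for MATR and 6.27 for SOFT. HR-negative cells, which had the most Irf7, had 168 CPM for COL1, 78.9 for STIFF, 115 for MATR and 130 for SOFT of Ifi27l2a.

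**Figure D1:**
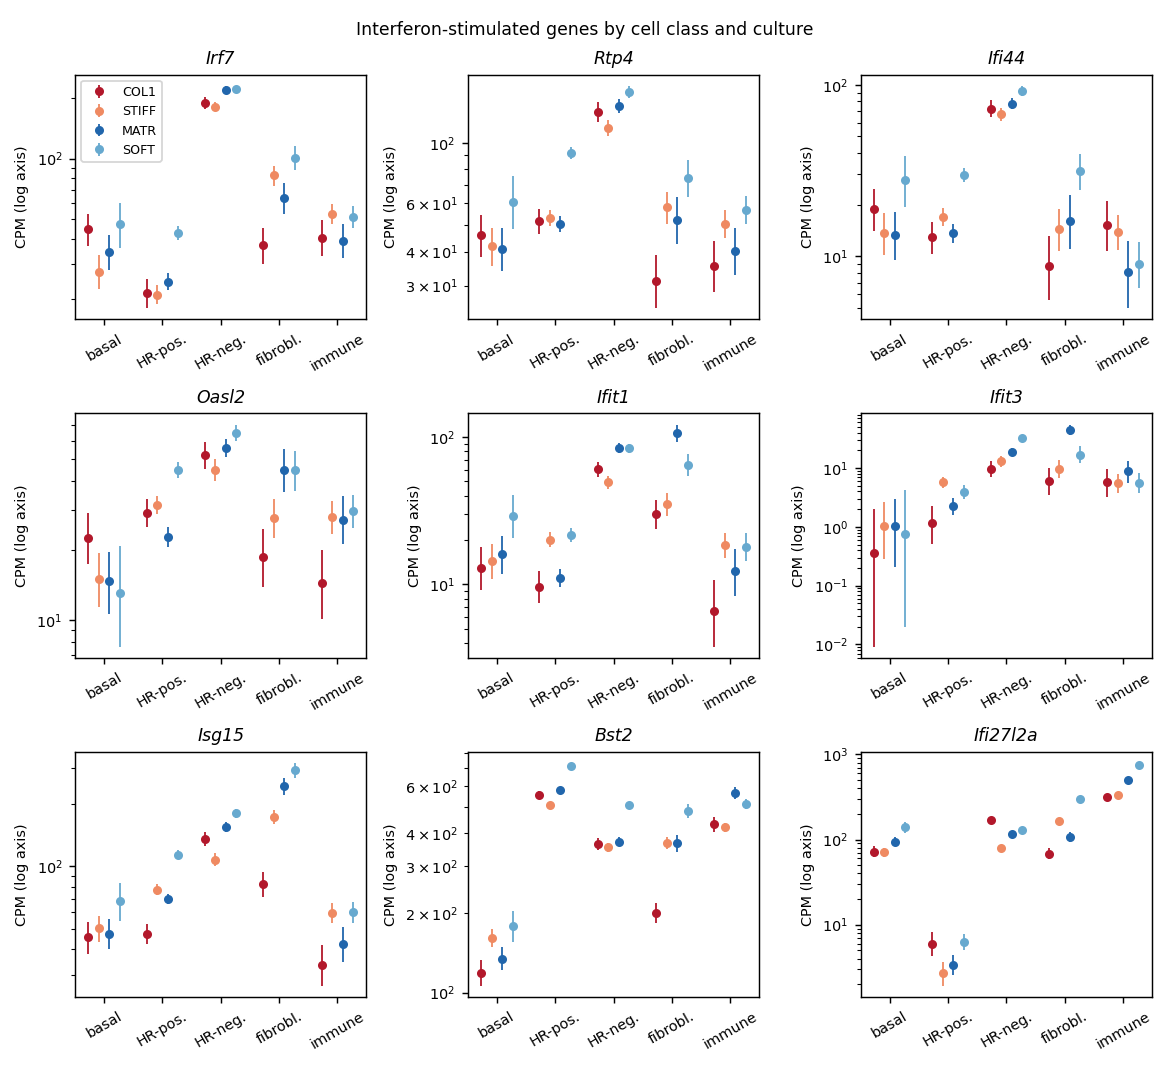
Level of each gene in CPM (vertical log axes) in basal-like, HR-positive, HR-negative, fibroblast-like and immune-like cells (horizontal axes) of the 4 cultures, with exact 95% counting intervals as bars. HR-negative points stand highest for Irf7, Rtp4 and Ifi44, HR-positive points for Bst2 and immune-like points for Ifi27l2a, from 316 to 759 CPM.

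Shares of cells were compared at equal depth. Each cell was thinned to 3000 UMIs, because median depth differed between classes and cultures, for example 13168 UMIs in COL1 and 27745 in STIFF HR-negative cells. At that depth an Irf7 UMI was found in 35.2% of COL1, 41.0% of STIFF, 44.4% of MATR, 39.1% of SOFT HR-negative cells, and in 6.55% of COL1, 6.55% of STIFF, 6.51% of MATR, 12.5% of SOFT HR-positive cells. Without thinning these shares were 69.2% of COL1, 85.7% of STIFF, 88.9% of MATR, 86.4% of SOFT HR-negative cells and 19.6% of COL1, 21.9% of STIFF, 22.2% of MATR, 35.0% of SOFT HR-positive cells. The luminal classes thus kept their order for Irf7 at equal depth. For Ifi27l2a the share was 44.1% of COL1, 50.8% of STIFF, 59.5% of MATR, 69.3% of SOFT immune-like cells, against 1.31% or less of HR-positive cells, and 76.0% to 87.6% against 3.24% to 5.76% without thinning. Free RNA can give UMIs in cells that do not express a gene. Its level was not measured here, and the Ifi27l2a share of HR-positive cells is not read as expression.

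The 7 genes other than Bst2 and Ifi27l2a were also counted per cell. At 3000 UMIs, at least 3 of the 7 were detected in 18.2% [13.6 to 23.6] of HR-negative cells for COL1, 16.4% [12 to 21.6] for STIFF, 24.3% [19.8 to 29.3] for MATR and 25.7% [21.0 to 30.8] for SOFT. In HR-positive cells the share was 2.12% of COL1, 3.75% of STIFF, 2.28% of MATR, 6.97% of SOFT. Fibroblast-like cells stood at 1.27% of COL1, 7.43% of STIFF, 8.74% of MATR, 13.6% of SOFT, and basal-like and immune-like cells at no more than 4.33% in any culture. Within a class, the correlation of any 2 of the 9 genes over cells was low, with a median over 36 pairs between 0.07 in immune-like and 0.15 in HR-negative cells. The highest was 0.45, for Ifit1 and Ifit3 over 886 fibroblast-like cells. These correlations are over sparse counts of cells that share libraries, and are a description.

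**Figure D2:**
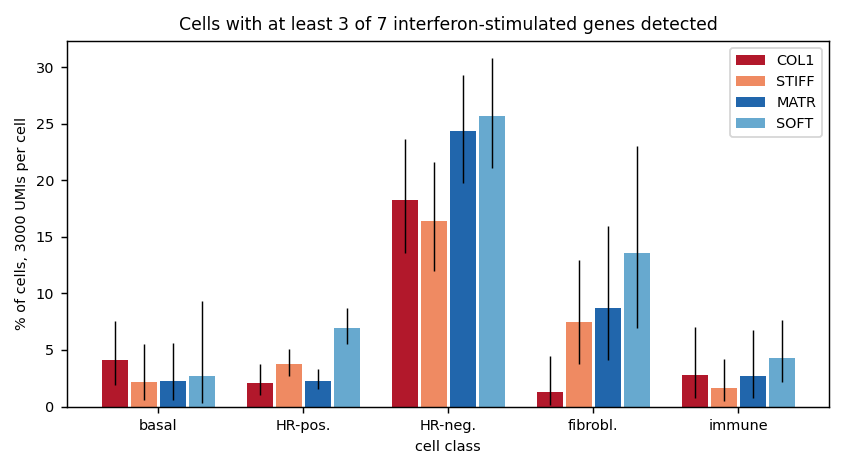
Share of cells, in percent and thinned to 3000 UMIs each, with at least 3 of Irf7, Rtp4, Ifi44, Oasl2, Ifit1, Ifit3 and Isg15 detected, by cell class and culture; lines are exact 95% binomial intervals. HR-negative bars reach 16.4% to 25.7%, and the COL1 fibroblast-like bar stands at 1.27%.

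Across the cultures, SOFT had the highest level of all 9 genes when cells of every class were summed, which held for 24.7% of 10568 genes measured (at least 5 CPM in any culture). COL1 had the lowest level of 8 of the 9, against 24.5% of genes. Over all cells Irf7 was at 68.7 CPM for COL1, 76.4 for STIFF, 83.3 for MATR and 101 for SOFT, Isg15 at 68.6 CPM for COL1, 87.1 for STIFF, 99.7 for MATR and 136 for SOFT and Bst2 at 382 CPM for COL1, 384 for STIFF, 459 for MATR and 576 for SOFT. Ifi27l2a was the gene lowest in STIFF, at 92.9 CPM for COL1, 74.1 for STIFF, 76.7 for MATR and 165 for SOFT. Levels over all cells also move with the makeup of a culture. Taken alone, such a sum does not tell fewer cells of a type from less RNA per cell, so levels within classes follow below. Immune-like cells, where Ifi27l2a is highest, were 9.34% of COL1, 10.0% of STIFF, 6.69% of MATR, 13.3% of SOFT cells.

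Within classes, SOFT had the highest level in 32 of the 45 pairs of gene and class. These were 8 of 9 genes in HR-positive cells (25.1% of all genes measured there), 7 in HR-negative cells (28.9%), 7 in basal-like cells (30.7%), 6 in fibroblast-like cells (21.3%) and 4 in immune-like cells (13.3%).

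Pairs of cultures were then compared within each class, and a pair of gene and class was counted where the ratio of CPM plus 10 reached 1.5-fold in either direction. The 4 comparisons share cultures and are not independent of each other. COL1 against STIFF gave 10 of 45 pairs lower in COL1 and 1 higher, where 1.94% and 1.06% of all measured pairs were as far apart. For MATR against SOFT, 12 were lower and 2 higher in MATR (1.78% and 2.16% of all pairs). STIFF against SOFT had 15 lower and 0 higher in STIFF (1.41% and 3.39%), and COL1 against MATR 10 lower and 0 higher in COL1 (1.18% and 1.51%). The counts depended on how tags were called. A rule on the margin between tags gave 3 lower pairs for COL1 against STIFF, and a rule on tags relative to their background gave 4 for MATR against SOFT and 6 for STIFF against SOFT.

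**Figure D3:**
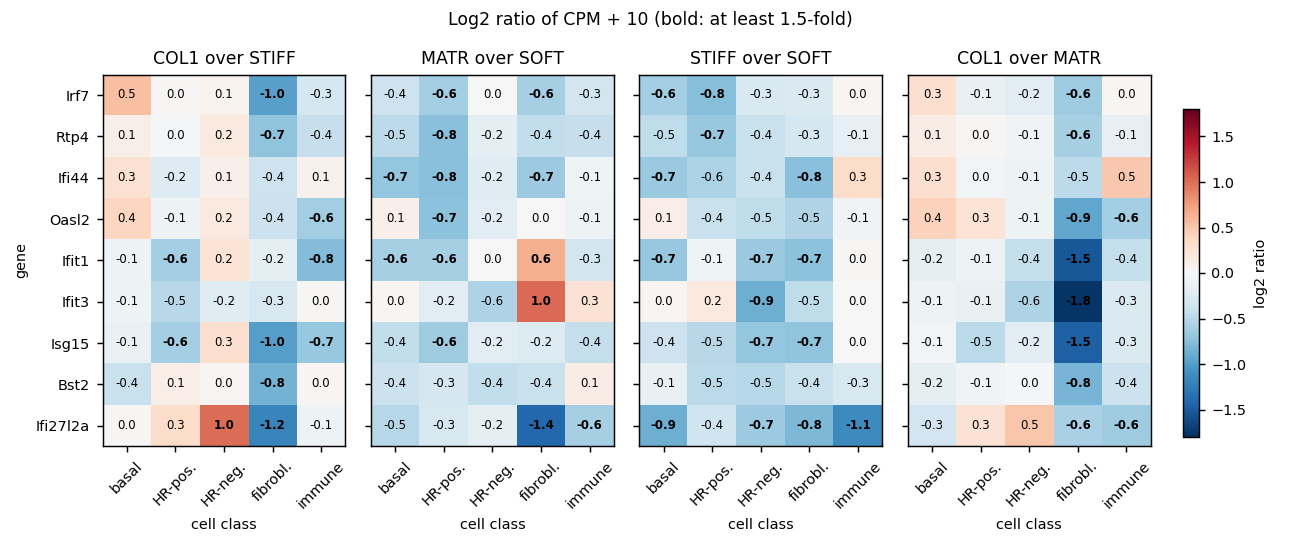
Log2 ratio of CPM plus 10 for each gene (rows) and cell class (columns) in the 4 comparisons, blue for lower and red for higher in the culture named first, with values of at least 1.5-fold in bold. The fibroblast-like columns of COL1 over STIFF and COL1 over MATR have medians of -0.72 and -0.84.

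Fibroblast-like cells of COL1 had the lowest level of all 9 genes among the 4 cultures, which was so for 30.1% of 10857 genes measured in that class. Against STIFF, 5 of the 9 were at least 1.5-fold lower in COL1 (2.89% of genes), and the median log2 ratio was -0.72 over the 9 genes and -0.05 over all genes. Ifi27l2a was at 67.9 CPM in COL1 and 167 in STIFF, a ratio of 0.407 [0.342 to 0.481]. Isg15 was at 82.0 CPM in COL1 and 173 in STIFF (0.474 [0.404 to 0.554]). The transcription factor gene was lower as well, with Irf7 at 37.0 CPM in COL1 and 82.4 in STIFF (0.449 [0.353 to 0.566]). Bst2, at 199 CPM in COL1 and 366 in STIFF, and Rtp4, at 31.3 CPM in COL1 and 58.0 in STIFF, completed the 5. Of 13 HR-negative markers, 12 were detected in COL1 and 13 in STIFF fibroblast-like cells, summing to 2774 CPM in COL1 and 6354 in STIFF, where HR-negative cells themselves had 42398 CPM in COL1 and 45387 in STIFF. All 12 HR-positive markers were detected in both, at 627 CPM in COL1 and 1221 in STIFF, and all 9 pericyte markers, at 1594 CPM in COL1 and 1214 in STIFF. The part of these in the difference was not tested.

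Against MATR, 8 of the 9 genes were at least 1.5-fold lower in COL1 fibroblast-like cells (2.53% of genes), and the median log2 ratio was -0.84 over the 9 genes and -0.05 over all genes. The lowest ratio was that of Ifit3, with 6.10 CPM in COL1 and 44.7 in MATR (0.136 [0.0747 to 0.234]). Ifit1 had 30.1 CPM in COL1 and 106 in MATR (0.284 [0.216 to 0.369]), and Isg15 had 82.0 CPM in COL1 and 244 in MATR (0.336 [0.285 to 0.396]). Ifi44 was the gene that did not pass, at 8.77 CPM in COL1 and 16.1 in MATR. In these cells all 10 fibroblast markers were detected in both cultures, summing to 14639 CPM in COL1 and 20308 in MATR. All 12 macrophage markers were also detected in both, at 1109 CPM in COL1 and 632 in MATR, and HR-negative markers summed to 2774 CPM in COL1 and 3208 in MATR. Whether these play a part was not tested.

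The Ifit1 and Ifit3 levels of MATR fibroblast-like cells rested on few cells. Of 211 Ifit1 UMIs in 107 MATR cells, 5 cells held 174, or 82.5%, and 1 cell held 80. Of 89 Ifit3 UMIs, 5 cells held 72, or 80.9%. Cxcl10, a chemokine gene induced by interferons, had all of its 228 UMIs in 4 of the 107 cells. With these cells, Ifit1 was higher in MATR than in SOFT (106 CPM in MATR and 64.8 in SOFT, 1.64 [1.32 to 2.04]), and so was Ifit3 (44.7 CPM in MATR and 17.0 in SOFT, 2.63 [1.78 to 3.97]). Leaving out the 5 cells of each culture with the most UMIs of the 9 genes turned the log2 ratio of Ifit1 to -0.76 and that of Ifit3 to -0.03. The same step took the count of COL1 against MATR over all classes to 4 lower pairs. In the other cultures the 5 highest cells held 70.9% of Ifit1 UMIs for COL1, 52.7% for STIFF and 64.5% for SOFT. For Isg15 the 5 highest fibroblast-like cells held 28.8% of UMIs for COL1, 25.1% for STIFF, 43.7% for MATR and 30.6% for SOFT. For Ifi27l2a they held 51.7% for COL1, 32.8% for STIFF, 56.8% for MATR and 41.3% for SOFT.

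**Figure D4:**
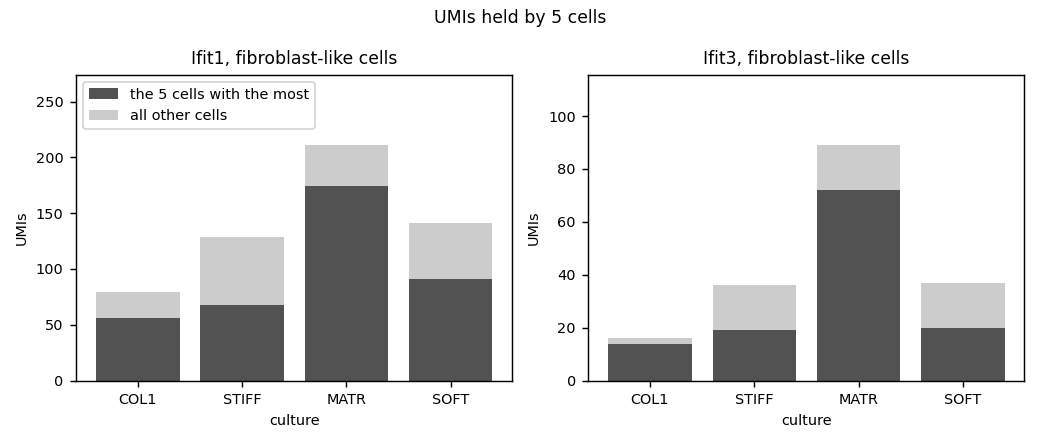
UMIs of Ifit1 (left) and Ifit3 (right) in fibroblast-like cells of each culture (horizontal axes), split into the 5 cells with the most UMIs of that gene (dark) and all other cells (light). In MATR the dark parts are 174 of 211 and 72 of 89 UMIs.

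Other genes ran the opposite way in MATR against SOFT fibroblast-like cells. Ifi27l2a was at 107 CPM in MATR and 301 in SOFT (0.355 [0.303 to 0.415]), Ifi44 at 16.1 CPM in MATR and 31.2 in SOFT (0.515 [0.327 to 0.795]) and Irf7 at 63.4 CPM in MATR and 101 in SOFT (0.627 [0.50 to 0.784]). In all, 3 of the 9 were lower in MATR (2.1% of genes) and 2 higher (3.24%). All 12 markers of macrophages, which belong to the class where Ifi27l2a is highest, were detected in both, summing to 632 CPM in MATR and 1868 in SOFT fibroblast-like cells, against 42220 CPM in MATR and 50746 in SOFT immune-like cells. Their part was not tested.

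STIFF against SOFT had 4 genes lower in STIFF fibroblast-like cells (1.48% of genes), with a median log2 ratio of -0.54 over the 9 genes and 0.04 over all genes. They were Ifi44, at 14.4 CPM in STIFF and 31.2 in SOFT (0.460 [0.315 to 0.668]), Ifit1, Ifi27l2a and Isg15, the last at 173 CPM in STIFF and 291 in SOFT (0.594 [0.531 to 0.664]). The 12 macrophage markers, all detected in both, summed to 947 CPM in STIFF and 1868 in SOFT fibroblast-like cells. Their part was not tested.

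In HR-positive luminal-like cells, MATR against SOFT had the most genes past 1.5-fold. In all, 6 of the 9 genes were lower in MATR (1.36% of genes) and 0 were higher (0.961%), and the median log2 ratio was -0.62 over the 9 genes and -0.04 over all genes. Ifi44 was at 13.6 CPM in MATR and 29.9 in SOFT (0.456 [0.388 to 0.535]). Oasl2 was at 22.9 CPM in MATR and 44.8 in SOFT (0.511 [0.450 to 0.579]). Rtp4 was at 50.4 CPM in MATR and 91.8 in SOFT (0.549 [0.504 to 0.598]), and Irf7 at 24.4 CPM in MATR and 42.7 in SOFT (0.571 [0.505 to 0.647]). Ifit1 and Isg15 completed the 6. Bst2 was at 578 CPM in MATR and 717 in SOFT, which did not reach 1.5-fold.

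Different clusters made up the HR-positive class in these cultures. Cluster 1, led by Klk1b27, held 922 MATR and 258 SOFT cells, and cluster 3, led by Tnip3 and Calcb, held 193 and 500. Within cluster 1 alone the median over the 9 genes was -0.29 with 1 gene lower in MATR (0.16% of genes), and within cluster 3 it was -0.55 with 4 lower (1.21%). Cluster 2, with 130 MATR and 266 SOFT cells, had a median of 0.23 with 1 gene higher in MATR (1.08%). Of 13 HR-negative markers, 12 were detected in MATR and 13 in SOFT HR-positive cells, summing to 1048 CPM in MATR and 2314 in SOFT. Their part was not tested.

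STIFF against SOFT gave 2 genes lower in STIFF HR-positive cells (1.41% of genes), Irf7 at 21.0 CPM in STIFF and 42.7 in SOFT (0.492 [0.429 to 0.564]) and Rtp4. Here too the clusters differed, with 732 STIFF and 258 SOFT cells in cluster 1, 18 STIFF and 266 SOFT cells in cluster 2, and 329 STIFF and 500 SOFT cells in cluster 3. Within cluster 1 the median log2 ratio over the 9 genes was -0.27 with 0 genes lower (1.12% of genes). Within cluster 3 it was -0.50 with 4 lower (0.527%). COL1 against STIFF gave 2 genes lower in COL1 HR-positive cells (0.746% of genes), Ifit1 at 9.67 CPM in COL1 and 20.1 in STIFF (0.481 [0.363 to 0.629]) and Isg15 at 47.0 CPM in COL1 and 77.4 in STIFF (0.607 [0.535 to 0.688]). STIFF Ifit1 again lay partly in few cells. Of 308 Ifit1 UMIs in 1079 cells, 5 cells held 47.4%, and of 88 Ifit3 UMIs 1 cell held 46. Without the 5 highest cells for the gene in each culture, Ifit1 was at 6.24 CPM in COL1 and 10.6 in STIFF.

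In HR-negative cells, STIFF had the lowest level of 8 of the 9 genes, as for 19.7% of 10091 genes measured. Against SOFT, 4 genes were lower in STIFF (0.791% of genes) and the median log2 ratio was -0.51, with 0.00 over all genes. Ifit3 was at 13.0 CPM in STIFF and 32.3 in SOFT (0.401 [0.316 to 0.505]). Ifit1 was at 49.3 CPM in STIFF and 83.9 in SOFT (0.587 [0.518 to 0.666]), and Isg15 at 108 CPM in STIFF and 181 in SOFT (0.597 [0.548 to 0.649]). Ifi27l2a, at 78.9 CPM in STIFF and 130 in SOFT, was the other gene of the 4. Irf7 differed less, with 181 CPM in STIFF and 221 in SOFT (0.821 [0.766 to 0.880]). All 10 basal markers were detected in HR-negative cells of both cultures, summing to 1637 CPM in STIFF and 493 in SOFT, and their part was not tested.

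MATR against SOFT and COL1 against MATR had 0 genes past 1.5-fold in HR-negative cells. Over the 5 classes together, 1.18% to 2.16% of all measured pairs passed in each direction in these comparisons. The 0 is therefore not read as a result about these genes. The 1 gene past 1.5-fold in COL1 against STIFF was Ifi27l2a, at 168 CPM in COL1 and 78.9 in STIFF (2.13 [1.90 to 2.37]), where 0.243% of genes were as much higher. Its direction was opposite to that in fibroblast-like cells.

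In immune-like cells Ifi27l2a was at 337 CPM in STIFF and 759 in SOFT (0.444 [0.420 to 0.470]), and at 499 CPM in MATR and 759 in SOFT (0.657 [0.616 to 0.700]). It was the only one of the 9 past 1.5-fold in that class in either comparison, where 1.59% and 1.7% of genes were lower. Against MATR, COL1 immune-like cells had 2 genes lower (1.46% of genes), Ifi27l2a at 316 CPM in COL1 and 499 in MATR (0.634 [0.579 to 0.694]) and Oasl2. Against STIFF, 3 genes were lower in COL1 (3.73%), Oasl2 at 14.5 CPM in COL1 and 27.9 in STIFF (0.518 [0.348 to 0.752]), Ifit1 at 6.61 CPM in COL1 and 18.5 in STIFF (0.358 [0.197 to 0.609]), and Isg15 at 33.4 CPM in COL1 and 59.7 in STIFF. Beside these, HR-negative markers summed to 4608 CPM in COL1 and 7173 in STIFF immune-like cells (12 and 13 of 13 detected), HR-positive markers to 1978 CPM in COL1 and 2776 in STIFF (11 of 12 in both), and macrophage markers to 44514 CPM in COL1 and 36167 in STIFF. In MATR and SOFT immune-like cells HR-negative markers summed to 4159 and 2771 CPM and HR-positive markers to 1517 and 1330 CPM. Macrophage markers there summed to 42220 CPM in MATR and 50746 in SOFT. Their part was not tested.

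Basal-like cells were few, with 77 in SOFT. Irf7, Ifi44, Ifit1 and Ifi27l2a were lower in STIFF than in SOFT (1.74% of genes), the last at 71.0 CPM in STIFF and 139 in SOFT (0.512 [0.422 to 0.621]). In SOFT, 5 cells held 31 of 38 Ifit1 UMIs (81.6%), and without the 5 highest cells of each culture Ifit1 was at 5.54 CPM in STIFF, 6.15 in MATR and 5.90 in SOFT basal-like cells. With at least 2000 UMIs per cell the log2 ratio of Irf7 in this comparison was 0.50. Ifi44 and Ifit1 were lower in MATR than in SOFT (1.56%), and 0 genes passed in COL1 against STIFF or MATR. Over the 5 classes together, 1.06% to 1.94% of all measured pairs passed in each direction with COL1. That 0 is not read as a result either. In basal-like cells HR-negative markers summed to 9616 CPM for COL1, 8276 for STIFF, 8466 for MATR and 5787 for SOFT, with 10 to 13 of 13 detected, and the 10 basal markers, all detected, to 7592 CPM for COL1, 9164 for STIFF, 8343 for MATR and 7098 for SOFT. The part of HR-negative RNA in these values was not tested.

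The comparisons across channels can also be made with all kept barcodes of a channel, whether they carried 1 tag, both or none. COL1 and STIFF together against MATR and SOFT together gave 7 of 45 pairs lower and 0 higher (0.351% and 1.15% of all pairs), and 41 of the 45 log2 ratios were below 0. Of the 7, 5 were in fibroblast-like cells (0.398% of genes), among them Ifit3 with a ratio of 0.342 [0.272 to 0.428], Ifit1 with 0.505 [0.443 to 0.576] and Isg15 with 0.604 [0.566 to 0.645]. The others were Ifit1 in HR-negative cells, with 0.604 [0.565 to 0.645] (0.175% of genes), and Ifi27l2a in immune-like cells, with 0.507 [0.485 to 0.529] (0.541%).

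Transcripts of the interferons themselves were rare, and those of interferon lambda were found mainly in another class than most of the genes above. HR-positive cells held 328 UMIs of Ifnl2 and Ifnl3 in 245 of 2338 COL1 and STIFF barcodes, which is 10.5% [9.27 to 11.8], and 563 UMIs in 413 of 3359 MATR and SOFT barcodes, 12.3% [11.2 to 13.5]. In HR-negative cells there were 9 UMIs, in 0.277% of barcodes, and 6 UMIs, in 0.177%. Median depths were 10902 and 11820 UMIs in HR-positive and 10116.5 and 12667.5 in HR-negative cells of these channels. The level of free RNA was not measured. Levels were 11.1 and 12.7 CPM in HR-positive cells, against 0.290 and 0.158 CPM in HR-negative cells. In the other named classes they lay between 0.893 and 2.63 CPM. A cluster without a class name, led by Wfdc18, Csn3 and Lrg1, stood between these and the HR-positive level. Its tagged cells had 6.81 CPM for COL1, 5.63 for STIFF, 8.83 for MATR and 6.51 for SOFT. Ifnl2 and Ifnl3 are near-identical, so they were summed. In HR-positive cells of single cultures the level was 9.67 CPM for COL1, 11.3 for STIFF, 14.0 for MATR and 11.6 for SOFT, with overlapping intervals. The clusters of the class are unevenly shared between cultures, and within cluster 1 alone the level was 12.9 CPM for COL1, 12.4 [10.3 to 14.8] for STIFF, 16.3 for MATR and 20.4 [16 to 25.6] for SOFT, where STIFF and SOFT did not overlap.

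Type I transcripts were hardly detected at this depth. The 14 Ifna genes had 0 UMIs over 17513 kept barcodes of both channels, Ifnb1 had 5, Ifne 1 and Ifnk 27, and the type II interferon gene Ifng had 0. As a one-sided limit, a count of 0 allows up to 3 counts.

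The receptor genes were spread differently. Ifnar2 was at 145 CPM in HR-negative and 53.1 in HR-positive cells of the COL1 and STIFF channel, and at 154 CPM in HR-negative and 58.4 in HR-positive cells of the MATR and SOFT channel. Fibroblast-like cells of these channels had 157 and 187 CPM, immune-like cells 144 and 163 CPM and basal-like cells 91.4 and 99.8 CPM. Ifnar1 was highest in immune-like cells, at 50.1 and 55.0 CPM. The interferon lambda receptor gene Ifnlr1 was at 7.28 and 9.46 CPM in HR-negative cells, 7.04 and 7.36 CPM in HR-positive cells and 2.53 and 1.79 CPM in fibroblast-like cells of the same channels. The luminal classes could not be separated for Ifnlr1 in the COL1 and STIFF channel. Il10rb, its partner chain, was at 32.3 and 33.9 CPM in HR-negative and 21.1 and 24.1 CPM in HR-positive cells. Immune-like cells had the highest Il10rb, at 55.9 and 65.4 CPM.

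**Figure D5:**
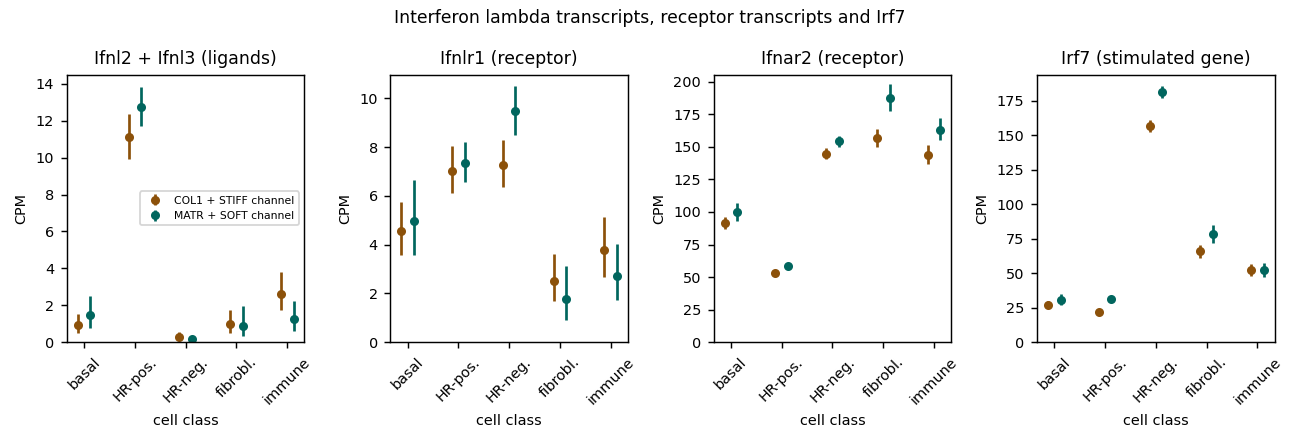
Levels in CPM of Ifnl2 plus Ifnl3, of the receptor genes Ifnlr1 and Ifnar2 and of Irf7 in 5 cell classes, over all kept barcodes of each channel (COL1 with STIFF, MATR with SOFT), with exact 95% counting intervals. Interferon lambda transcripts stand at 11.1 and 12.7 CPM in HR-positive cells, and Irf7 is highest in HR-negative cells, at 157 and 181 CPM.

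HR-positive cells with an interferon lambda UMI were set beside those without, both thinned to 3000 UMIs. In the COL1 and STIFF channel 65 cells had such a UMI and 2155 did not, and Ifit1 was at 169 UMIs per 1000 cells with it and 41.3 without. Isg15 was at 400 UMIs per 1000 cells with it and 189 without. In the MATR and SOFT channel, with 123 and 3142 cells, Ifit1 was at 48.8 with it and 49.6 without, and Isg15 at 325 with it and 236 without. The Ifit1 level of cells with a lambda UMI rested on 11 UMIs in the COL1 and STIFF channel and 6 in the other. Rtp4, Ifi44, Oasl2 and Bst2 were higher with a lambda UMI in both channels, as was Isg15. Irf7 was at 169 with it and 71.9 without in the COL1 and STIFF channel, and at 97.6 and 97.1 in the other. Ifit3 was at 200 (13 UMIs) and 4.64, and at 8.13 and 8.91 in the other. Ifi27l2a had 1 UMI and 0 UMIs in cells with a lambda UMI. How many cells held these UMIs is not given here.

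Other genes of the pathway were counted in lists, with the same 1.5-fold limit. Of 43 other type I interferon-stimulated genes measured in fibroblast-like cells, 17 were lower in COL1 than in MATR (2.53% of all genes in that class) and 0 higher, with a median log2 ratio of -0.47. Among them Ifit2 was at 4.96 CPM in COL1 and 28.7 in MATR, and Ifi203 at 54.9 CPM in COL1 and 131 in MATR. As with Ifit1, few cells carried part of this: 5 cells held 84.2% of Ifit2 and 94.6% of Rsad2 UMIs of MATR fibroblast-like cells.

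Against STIFF, 5 of 42 such genes were lower in COL1 fibroblast-like cells (2.89% of all genes) and 0 were higher, with a median of -0.29. Among them was Zbp1, a sensor of nucleic acids, at 20.2 CPM in COL1 and 39.3 in STIFF. Of 14 genes of MHC class I antigen presentation, 3 were lower against the same 2.89%, H2-K1 at 741 CPM in COL1 and 1194 in STIFF, Psmb8 and Psme2. In MATR against SOFT fibroblast-like cells the list split, with 4 of 44 higher in MATR (Ifit2, Ifitm1, Rsad2 and Ifi203, against 3.24% of all genes) and 4 lower (2.1%), among them Zbp1, Slfn2 and Usp18, which damps receptor signalling.

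In HR-positive cells 3 of 39 were lower in MATR than in SOFT (1.36% of all genes) and 0 higher (0.961%). They were Ifitm3, whose protein blocks virus entry, at 247 CPM in MATR and 605 in SOFT, Slfn2 and Zbp1. In HR-negative cells 2 of 43 were lower in STIFF than in SOFT (0.791% of all genes) and 0 higher, Stat2 at 6.68 CPM in STIFF and 19.8 in SOFT and Gbp7 at 9.31 CPM in STIFF and 19.4 in SOFT. The receptor genes had 0 members past 1.5-fold in any of the 5 classes in the 4 comparisons. Of all measured pairs of gene and class, 1.06% to 3.39% passed in each direction. For so short a list 0 is therefore not read as a result about the receptors.

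The 9 genes were not equally alike over the 20 sums of class and culture. The correlation of a gene with the mean of the other 8 was 0.88 for Irf7, 0.87 for Oasl2, 0.85 for Ifit1, 0.81 for Rtp4, 0.80 for Ifit3, 0.78 for Isg15 and 0.74 for Ifi44. It was 0.27 for Bst2 and 0.12 for Ifi27l2a. Of 8424 other genes that reached 20 CPM in at least 1 sum, the 12 most like the mean of the 9 were Ifit3b and Phf11d (both 0.92), Ccn5 (0.88), Shisa5 and Abhd5 (both 0.86), AW011738 and Lif (both 0.83), Fam234b and Gkap1 (both 0.82), Pradc1 and Piezo1 (both 0.81) and Zbp1 (0.80). All 12 had their highest level in HR-negative cells of 1 of the cultures. Sums of a class share its cells and its library, so these correlations are a description.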

How the data were processed

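The deposited files hold raw UMI counts for each barcode, per gene and per antibody tag, and per the file headers Cell Ranger 5.0.0 wrote them. Per the submitters' processing notes, the tools include Seurat 4.2.0 and the build named is mm10, with no step given. How cell barcodes were called is not given in the sources used here, and the protocol in the labels names reagents of both v2 and v3 chemistry. Each channel was deposited under a pair of entries with equal gene counts and was used once.

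Barcodes needed at least 1000 UMIs and 500 genes, and mitochondrial UMIs could make up at most 15%. Tags were called with HTODemux (Seurat 5.3.0, quantile 0.99), and barcodes with both tags (305 and 277) were left out of the cultures. They stayed in every sum over all kept barcodes of a channel. Scrublet was run on all kept barcodes, tagged or not, and marked 0 of 9568 and 754 of 7945 as doublets. The 336 and 282 doublets expected within a tag refer to tagged singlets, so these counts are not comparable. Scrublet's calls were not used as a filter. Cells were clustered with scanpy 1.11.5 and leidenalg 0.10.2 (resolution 0.5, 1973 variable genes after 27 interferon genes were left out). A cluster was named where at least 3 markers reached 20 CPM and 2 times the median of the other clusters. It stayed unnamed where a second list reached 0.5 of the first in both mean log2 ratio and number of markers. Pericyte markers beside fibroblast markers, and dendritic beside macrophage markers, did not count as a second list. This rule was set after the clusters were seen. CPM, ratios and exact intervals (scipy 1.17.1) were computed from summed counts, with 10 CPM added before log2. The ratio code was tested on simulated data.

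All 9 genes are named. Of other lists, genes at 5 CPM or more were counted, and those past 1.5-fold with at least 30 UMIs could be named, as could the 12 genes most like the mean of the 9. The genes and lists were chosen with earlier results of these data known, so the lower COL1 than MATR levels in fibroblast-like cells and the SOFT level of Ifi27l2a are no independent support. Alternatives covered tag rules, clustering, cell filters, doublet scores, scaling, added CPM and highest cells. Some results on other pathway genes are not reported here.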

Additional observations from a re-analysis of the deposited data

Results flagged for a closer look

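Ifi27l2a had opposite directions in 2 cell classes in COL1 against STIFF. Its log2 ratio was 0.999 in HR-negative and -1.18 in fibroblast-like cells, and the difference between these was not tested.

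Ifit1 did so in MATR against SOFT, with log2 ratios of -0.59 in basal-like, -0.59 in HR-positive and 0.63 in fibroblast-like cells, and that difference was not tested either. Few cells carried the fibroblast-like and the basal-like value: without the 5 cells of each culture with the most UMIs of the 9 genes, they were -0.76 in fibroblast-like and -0.22 in basal-like cells. With the relative tag rule the value was -0.047 in basal-like and 1.35 in fibroblast-like cells.

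One more antibody row, to which no culture is assigned, held 13315 counts in the COL1 and STIFF channel and 13477 counts in the MATR and SOFT channel. It entered no comparison.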

How the results depend on the processing

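Over 16 or 17 alternatives per comparison, the pairs of gene and class at least 1.5-fold lower numbered 3 to 14 for COL1 against STIFF, 4 to 15 for MATR against SOFT, 6 to 19 for STIFF against SOFT and 4 to 13 for COL1 against MATR. For COL1 against STIFF, 10 were lower and 1 higher. A rule on the margin between tags gave 3 lower, a rule on tags relative to their background gave 2 higher, and 1 CPM added in place of 10 gave 3 higher. For MATR against SOFT, 12 were lower and 2 higher. The relative tag rule gave 4 lower and the HR-positive class as its cluster 1 alone, an alternative added after seeing the data, gave 7 lower. TMM scaling and the mean of cells' CPM each gave 1 higher, and leaving out the 5 cells of each culture and class with the most UMIs of the 9 genes gave 0 higher. For STIFF against SOFT, 15 were lower. The relative tag rule gave 6, a minimum of 2000 UMIs gave 8, and ignoring tags gave 7. None was higher under any of its 17 alternatives. For COL1 against MATR, 10 were lower and 0 higher. Leaving out the 5 cells gave 4 lower. Leiden resolution 0.3, clusters within each channel alone, at least 2000 UMIs and at most 10% mitochondrial UMIs each gave 1 higher, and 1 CPM added gave 3 higher. Of 54 values past 1.5-fold, 50 kept their sign under each of these alternatives. The exceptions were Ifit1 (-0.76) and Ifit3 (-0.030) for MATR against SOFT in fibroblast-like cells without the 5 cells, Irf7 for STIFF against SOFT in basal-like cells (0.50 with at least 2000 UMIs), and Ifit1 for STIFF against SOFT in fibroblast-like cells (0.46 without the highest doublet scores). Apart from the highest cells, the cause was not tested. The median over the 9 genes in fibroblast-like cells lay between -0.91 and -0.50 for COL1 against STIFF and between -0.99 and -0.52 for COL1 against MATR. In HR-positive cells it lay between -0.78 and -0.29 for MATR against SOFT, and in HR-negative cells between -0.72 and -0.32 for STIFF against SOFT. In basal-like cells it lay between -0.63 and 0.25 for COL1 against STIFF. No paired analysis was possible because each condition was 1 culture and no test was run. Sums of basal-like cells rest on 77 to 229 cells per culture and those of fibroblast-like cells on 82 to 166.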

Other observations

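A cluster of 1041 tagged cells led by Wfdc18, Csn3 and Lrg1 stayed without a class name, and its cells entered no class above. In it Irf7 was at 74.4 CPM for COL1, 106 for STIFF, 110 for MATR and 126 for SOFT, and Isg15 at 55.9 CPM for COL1, 89.0 for STIFF, 113 for MATR and 154 for SOFT. SOFT had the highest level there of 7 of the 9 genes, and for what share of all genes this held was not counted. Ifit1 was at 51.6 CPM for MATR and 48.2 for SOFT, and Ifit3 at 21.1 CPM for MATR and 9.54 for SOFT.

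In immune-like cells 2 other interferon-induced genes differed in opposite directions. Ifitm3 was at 1433 CPM in MATR and 2496 in SOFT (0.574 [0.553 to 0.596]), and Isg20 at 44.8 CPM in MATR and 12.6 in SOFT (3.56 [2.58 to 4.94]). They were picked after their values were seen.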
